A study of Caenorhabditis elegans with 8 samples.

Results

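The saposin-like and antimicrobial peptide genes of Caenorhabditis elegans were taken as all genes whose WormBase symbol belongs to 1 of 7 families (spp, abf, cnc, fip, fipr, ilys or thn, followed by a number) and which had at least 10 counts in at least 3 of the 8 libraries. The count table lists 46748 genes. Of these, 94 carry such a symbol and 44 met the count rule. The 44 members comprise 20 of 30 spp symbols, 2 of 6 ilys, 2 of 5 thn, 4 of 6 abf, 7 of 11 cnc, 3 of 7 fip and 6 of 29 fipr symbols.

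RNA was sequenced from whole wild-type nematodes (strain N2) after RNA interference by feeding, in which worms eat bacteria that make double-stranded RNA. There were 3 libraries labelled hlh-2 RNAi, 3 labelled lin-32 RNAi and 2 from worms given L4440, the plasmid with no insert. HLH-2 is an E protein and LIN-32 an Atonal-like proneural factor, both basic helix-loop-helix transcription factors, and the series title asks how impairing each alters expression. All groups share the N2 background, and the sources used here do not give the age or stage of the worms. Feeding RNAi acts on the whole animal and is known to reach neurons poorly in N2.

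Worms have no circulating immune cells and rely on barrier tissues, the intestine, the epidermis and the pharynx, which secrete antimicrobial proteins. Saposin-like proteins (SPP, some of them called caenopores) are small helical proteins related to the pore-forming amoebapores. The abf genes encode defensin-like peptides, the cnc (caenacin) and fip or fipr (fungus-induced protein and its relatives) genes encode short secreted peptides, many of them made in the epidermis, ilys genes encode invertebrate-type lysozymes that cut bacterial cell walls, and thn genes encode thaumatin-like proteins. The p38 MAP kinase, DBL-1 (a TGF-beta ligand) and insulin pathways are known to set the levels of several of them.

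Total counts ran from 29783012 to 33317295 in the hlh-2 RNAi-labelled libraries, from 28979768 to 34814808 in the lin-32 RNAi-labelled ones, and were 22380739 and 27737470 in L4440. Levels are in CPM, a gene's counts relative to its library's TMM-scaled total, and 1 CPM stood for 22.05 to 35.4 counts. The hlh-2 transcript went against its label. It averaged 50.6 ± 2.87 CPM in the hlh-2 RNAi-labelled libraries (SD, n = 3), 22.1 ± 6.16 CPM in the lin-32 RNAi-labelled ones (SD, n = 3) and 49.8 ± 1.16 CPM in L4440 (SD, n = 2). Its log2 fold change against L4440 was -1.16 ± 0.15 in lin-32 RNAi (SE, edgeR adjusted p = 0.0041). The lin-32 transcript averaged 2.62 ± 0.694, 0.806 ± 0.154 and 1.46 ± 0.057 CPM in these groups. Against L4440 it did not pass, at 0.85 ± 0.25 in hlh-2 RNAi and -0.86 ± 0.29 in lin-32 RNAi (log2, SE, edgeR adjusted p = 0.456 and 0.233). Between hlh-2 RNAi and lin-32 RNAi it did, at 1.71 ± 0.23 (log2, SE, edgeR adjusted p = 0.00666). Every direction given below is therefore between libraries so labelled. Reads from ingested double-stranded RNA could count toward a targeted gene, and their part was not tested. Markers of intestine, epidermis, pharynx, body wall muscle, neurons and germline were detected. The germline marker msp-142 was too scarce to be tested, at means of 0.079, 0.106 and 0.068 CPM in hlh-2 RNAi, lin-32 RNAi and L4440.

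Levels of the members spanned more than 3 orders of magnitude, and a few genes held most of the reads. The lysozyme gene ilys-5 alone took 36.5% of the members' CPM, and the 5 highest genes took 82.4%. Of the 44, 6 averaged at least 100 CPM, 21 at least 5 CPM and 9 under 1 CPM. Their exons cover 258 to 1518 bases (median 430), so levels of different genes are compared below per kilobase (kb) of exon. Summed over the 44, the level was 2665 ± 99.6 CPM in the hlh-2 RNAi-labelled libraries (SD, n = 3), 2726 ± 57.8 CPM in the lin-32 RNAi-labelled ones (SD, n = 3) and 2733 ± 2.18 CPM in L4440 (SD, n = 2).

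**Figure D1:**
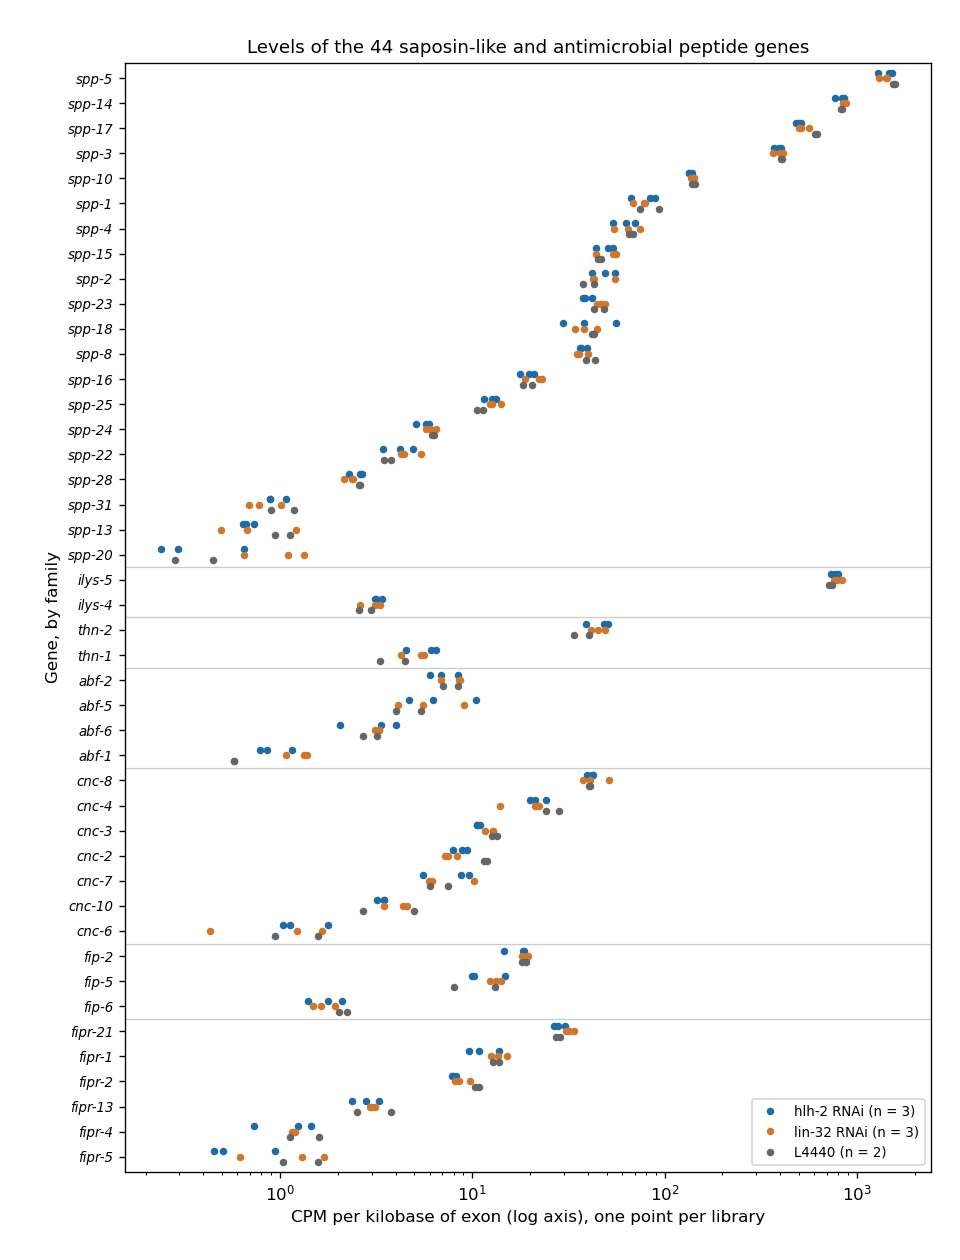
The level of each of the 44 genes in CPM per kilobase of exon (log axis), with 1 point per library and the genes ordered by family and level; the groups are hlh-2 RNAi (n = 3), lin-32 RNAi (n = 3) and L4440 (n = 2). The spread between genes, 0.625 (spp-20) to 1444 (spp-5) CPM per kb, far exceeds the spread between libraries of any gene.

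Among the saposin-like genes spp-5 stood highest at 1444 CPM per kb over the 8 libraries, followed by spp-14 at 840.8, spp-17 at 536.9, spp-3 at 395.3 and spp-10 at 139.5 CPM per kb. The spp-5 gene encodes caenopore-5, an antibacterial pore-forming protein of the intestine (WBGene00004990, chromosome X, 7319937 to 7320354, minus strand, 370 exon bases, WBcel235, as are all coordinates here). It was at 479.8, 541.3 and 562.4 CPM in the hlh-2 RNAi-labelled libraries, at 485.1, 529.9 and 522.4 CPM in the lin-32 RNAi-labelled ones, and at 581.6 and 571.3 CPM in L4440. All 6 RNAi libraries lay below both L4440 libraries. How many of all tested genes separate in this way was not counted, here or below. The log2 fold changes against L4440 were -0.13 ± 0.060 for hlh-2 RNAi and -0.17 ± 0.060 for lin-32 RNAi (SE), and neither passed the threshold of 0.05 (edgeR adjusted p = 0.743 and 0.263). The intestinal caenopore gene spp-1, known as a target of the insulin pathway, stood at 79.16 CPM per kb, and spp-10, which resembles prosaposin, was the least variable member, with a coefficient of variation within groups of 1.85%. At the low end were spp-31, spp-13 and spp-20, at 0.927, 0.812 and 0.625 CPM per kb.

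Of the lysozyme genes, ilys-5 stood at 768.7 CPM per kb and ilys-4 at 3.04. The ilys-5 gene (WBGene00017691, chromosome X, 6533490 to 6536840, minus strand, 1284 exon bases) had 939.4, 985.8 and 1023 CPM in the hlh-2 RNAi-labelled libraries, 973.5, 1019 and 1071 CPM in the lin-32 RNAi-labelled ones, and 925.3 and 958.4 CPM in L4440. Each lin-32 RNAi library lay above both L4440 libraries, while the hlh-2 RNAi libraries overlapped L4440. The log2 fold changes were 0.06 ± 0.049 for hlh-2 RNAi and 0.12 ± 0.049 for lin-32 RNAi against L4440 (SE, edgeR adjusted p = 0.880 and 0.353).

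The thaumatin-like gene thn-2, which is linked to defence against Pseudomonas aeruginosa, stood at 43.5 CPM per kb and its neighbour thn-1 at 5.01. The thn-2 gene (WBGene00009215, chromosome IV, 12383170 to 12383974, plus strand, 758 exon bases) had 29.56, 36.92 and 38.53 CPM in the hlh-2 RNAi-labelled libraries, 31.46, 37.09 and 34.1 CPM in the lin-32 RNAi-labelled ones, and 30.66 and 25.49 CPM in L4440. Only replicate 1 of hlh-2 RNAi lay within the L4440 range, and the lin-32 RNAi libraries did not overlap L4440. The log2 fold changes against L4440 were 0.33 ± 0.112 for hlh-2 RNAi and 0.29 ± 0.112 for lin-32 RNAi (SE, edgeR adjusted p = 0.587 and 0.308).

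The defensin-like genes were scarce, with abf-2, whose product is an antibacterial peptide of the pharynx, at 7.61 CPM per kb, abf-5 at 6.18, abf-6 at 3.13 and abf-1 at 0.967. The abf-5 gene (WBGene00000016, chromosome X, 12792854 to 12793386, plus strand, 479 exon bases) varied more between replicates than between groups. It had 4.982, 3.01 and 2.243 CPM in the hlh-2 RNAi-labelled libraries, 4.324, 2.655 and 1.959 CPM in the lin-32 RNAi-labelled ones, and 2.585 and 1.924 CPM in L4440. Its coefficient of variation within groups was 40.4%, where counting alone gives 10.6%. Neither log2 fold change against L4440 passed, at 0.60 ± 0.37 for hlh-2 RNAi and 0.41 ± 0.37 for lin-32 RNAi (SE, edgeR adjusted p = 0.809 and 0.710).

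Among the caenacin genes cnc-8 stood highest at 41.94 CPM per kb, then cnc-4 at 21.89, cnc-3 at 11.95 and cnc-2 at 9.08, and the remaining 3 lay between 1.22 and 7.47 CPM per kb. The cnc-8 gene (WBGene00009624, chromosome X, 10306595 to 10306951, plus strand, 315 exon bases) had 12.41, 13.29 and 13.43 CPM in the hlh-2 RNAi-labelled libraries, 12.83, 16.19 and 11.85 CPM in the lin-32 RNAi-labelled ones, and 12.92 and 12.78 CPM in L4440. Its groups overlapped, and its log2 fold changes against L4440 were 0.02 ± 0.12 for hlh-2 RNAi and 0.09 ± 0.12 for lin-32 RNAi (SE, edgeR adjusted p = 0.989 and 0.814).

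The fungus-induced genes ran from 1.02 (fipr-5) to 29.61 (fipr-21) CPM per kb. The highest of the fip genes was fip-2 (WBGene00020862, chromosome V, 9067978 to 9068390, plus strand, 363 exon bases), with 6.73, 6.705 and 5.315 CPM in the hlh-2 RNAi-labelled libraries, 6.626, 7.119 and 7.006 CPM in the lin-32 RNAi-labelled ones, and 6.621 and 6.934 CPM in L4440. Apart from 1 low library, replicate 3 of hlh-2 RNAi, its values lay close together. Its log2 fold changes against L4440 were -0.12 ± 0.12 for hlh-2 RNAi and 0.03 ± 0.12 for lin-32 RNAi (SE, edgeR adjusted p = 0.913 and 0.952).

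Summed by family, the spp genes were lower in both sets of RNAi libraries, at 1568 ± 59.2 CPM in the hlh-2 RNAi-labelled libraries (SD, n = 3), 1588 ± 21.9 CPM in the lin-32 RNAi-labelled ones (SD, n = 3) and 1681 ± 17.8 CPM in L4440 (SD, n = 2). The highest RNAi library, at 1612 CPM, lay below the lower L4440 library, at 1668 CPM. Sums of this kind follow the few highest genes. Here spp-5 averaged 527.8, 512.5 and 576.5 CPM and spp-17 181.5, 192.3 and 223.2 CPM in hlh-2 RNAi, lin-32 RNAi and L4440. Of the 20 spp members, 6 lay above 0 and 14 below 0 on the log2 scale for hlh-2 RNAi against L4440. For lin-32 RNAi against L4440, 8 lay above 0 and 12 below 0. The other families did not separate all 6 RNAi libraries from both controls, though some separated 1 RNAi group from L4440. The fipr sums were 18.54, 19.46 and 20.49 CPM in hlh-2 RNAi, 21.76, 23.5 and 22.15 CPM in lin-32 RNAi, and 21.31 and 22.29 CPM in L4440. Those of hlh-2 RNAi thus lay below all other libraries. For the ilys genes the sums were 985.3 ± 42.1 CPM in hlh-2 RNAi, 1024 ± 48.6 CPM in lin-32 RNAi and 944.1 ± 23.7 CPM in L4440, and for the cnc genes 34.5 ± 0.970, 34.3 ± 4.53 and 38.1 ± 1.51 CPM in these groups (SD). No test was run on these sums. In bulk libraries fewer cells of a type and less RNA per cell cannot be told apart.

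Between the hlh-2 RNAi-labelled libraries and L4440, spp-17 fell and no other member passed the test. Members called numbered 1 of 44, set against 0.203% of the 14272 tested genes (29 genes, with 0.049% higher and 0.154% lower). The spp-17 gene (WBGene00005002, chromosome I, 1016405 to 1017176, plus strand, 365 exon bases, protein coding, with no other annotated gene overlapping it) had 181.9, 186.6 and 176.0 CPM in the hlh-2 RNAi-labelled libraries, 205.8, 183.4 and 187.6 CPM in the lin-32 RNAi-labelled ones, and 220.2 and 226.2 CPM in L4440. Every RNAi library of either kind lay below both L4440 libraries, and replicate 1 of lin-32 RNAi came nearest to them. Both RNAi groups are set against the same 2 controls here, and the share of all genes with this pattern was not counted. Its mean was 181.5 ± 5.34 CPM in hlh-2 RNAi (SD, n = 3), against 223.2 ± 4.22 CPM in L4440 (SD, n = 2), a 0.813-fold level with a log2 fold change (± SE) of -0.30 ± 0.048 at an edgeR adjusted p of 0.0253. The direction held in all 16 alternatives and the call in 12 of them, some of which left out only a lin-32 RNAi library. Among the fits without 1 library of the 2 groups compared, only that without replicate 1 of hlh-2 RNAi kept the call (edgeR adjusted p = 0.0491). It was lost without replicate 2 or 3 of hlh-2 RNAi (edgeR adjusted p = 0.0679 and 0.0940) and without L4440 replicate 1 or 2 (edgeR adjusted p = 0.224 and 0.372).

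**Figure D2:**
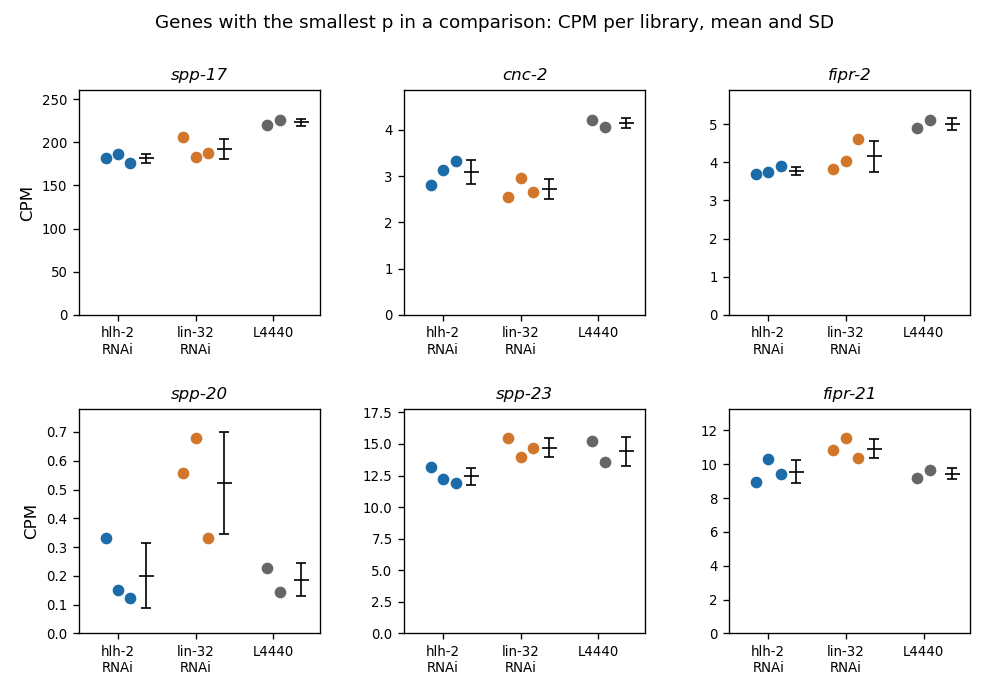
CPM (vertical axes from 0) in each library of the 6 genes with the 3 smallest p-values in any comparison, with groups hlh-2 RNAi, lin-32 RNAi and L4440 from left to right; black bars are means with SD (n = 3, 3 and 2). For spp-17 and cnc-2 the 6 RNAi libraries lie below both L4440 libraries, spp-20 and fipr-21 are highest in the lin-32 RNAi libraries, and spp-23 is lowest in the hlh-2 RNAi libraries.

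The next smallest p-values for hlh-2 RNAi belonged to fipr-2 and cnc-2, both below L4440 without passing the test. The fipr-2 gene (WBGene00009097, chromosome V, 12365348 to 12365869, plus strand, 472 exon bases) had 3.695, 3.755 and 3.902 CPM in the hlh-2 RNAi-labelled libraries, 3.836, 4.04 and 4.615 CPM in the lin-32 RNAi-labelled ones, and 4.898 and 5.119 CPM in L4440. The 3 groups were ordered with hlh-2 RNAi lowest and L4440 highest, and all 6 RNAi libraries lay below both controls. The log2 fold change of hlh-2 RNAi against L4440 was -0.41 ± 0.13 (SE, edgeR adjusted p = 0.534). The cnc-2 gene, an epidermal caenacin under DBL-1 control (WBGene00000556, chromosome V, 1449665 to 1450183, minus strand, 354 exon bases), had 2.804, 3.129 and 3.318 CPM in the hlh-2 RNAi-labelled libraries, 2.546, 2.966 and 2.656 CPM in the lin-32 RNAi-labelled ones, and 4.218 and 4.066 CPM in L4440. The RNAi libraries of both kinds overlapped each other and lay below both L4440 libraries. The log2 fold change of hlh-2 RNAi against L4440 was -0.42 ± 0.14 (SE, edgeR adjusted p = 0.568).

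Over the 44 members, 18 had a log2 fold change above 0 and 26 below 0 between hlh-2 RNAi and L4440. The median was -0.06, beside -0.0007 over all tested genes, and the range was -1.06 (fipr-5) to 0.67 (abf-1). Both extremes are scarce genes close to the count rule. The fipr-5 gene had 6, 6 and 12 counts in hlh-2 RNAi, 7, 18 and 20 in lin-32 RNAi, and 9 and 17 in L4440. The abf-1 gene had 4 and 5 counts in L4440. Their differences may follow in part from how members were chosen, and both enter the counts without overlap and over 0.5 below. At an unadjusted p under 0.05 there were 8 members, 3 higher and 5 lower, where 6.78% of all genes were so called (3.14% higher and 3.64% lower). Libraries of the groups did not overlap for 16 members, 4 with hlh-2 RNAi all higher and 12 with it all lower, beside 24.1% of all tested genes in either direction, 11.9% all higher and 12.2% all lower. By family the median was -0.06 for spp, 0.14 for ilys, 0.45 for thn, 0.34 for abf, -0.21 for cnc, -0.12 for fip and -0.25 for fipr genes. A difference of more than 0.5 on the log2 scale, in either direction, was seen in 5 members (11.4%), beside 5.42% of all tested genes. Among genes averaging at least 5 CPM it was seen in 0 of 21 members, beside 0.548% of 8573 genes.

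**Figure D3:**
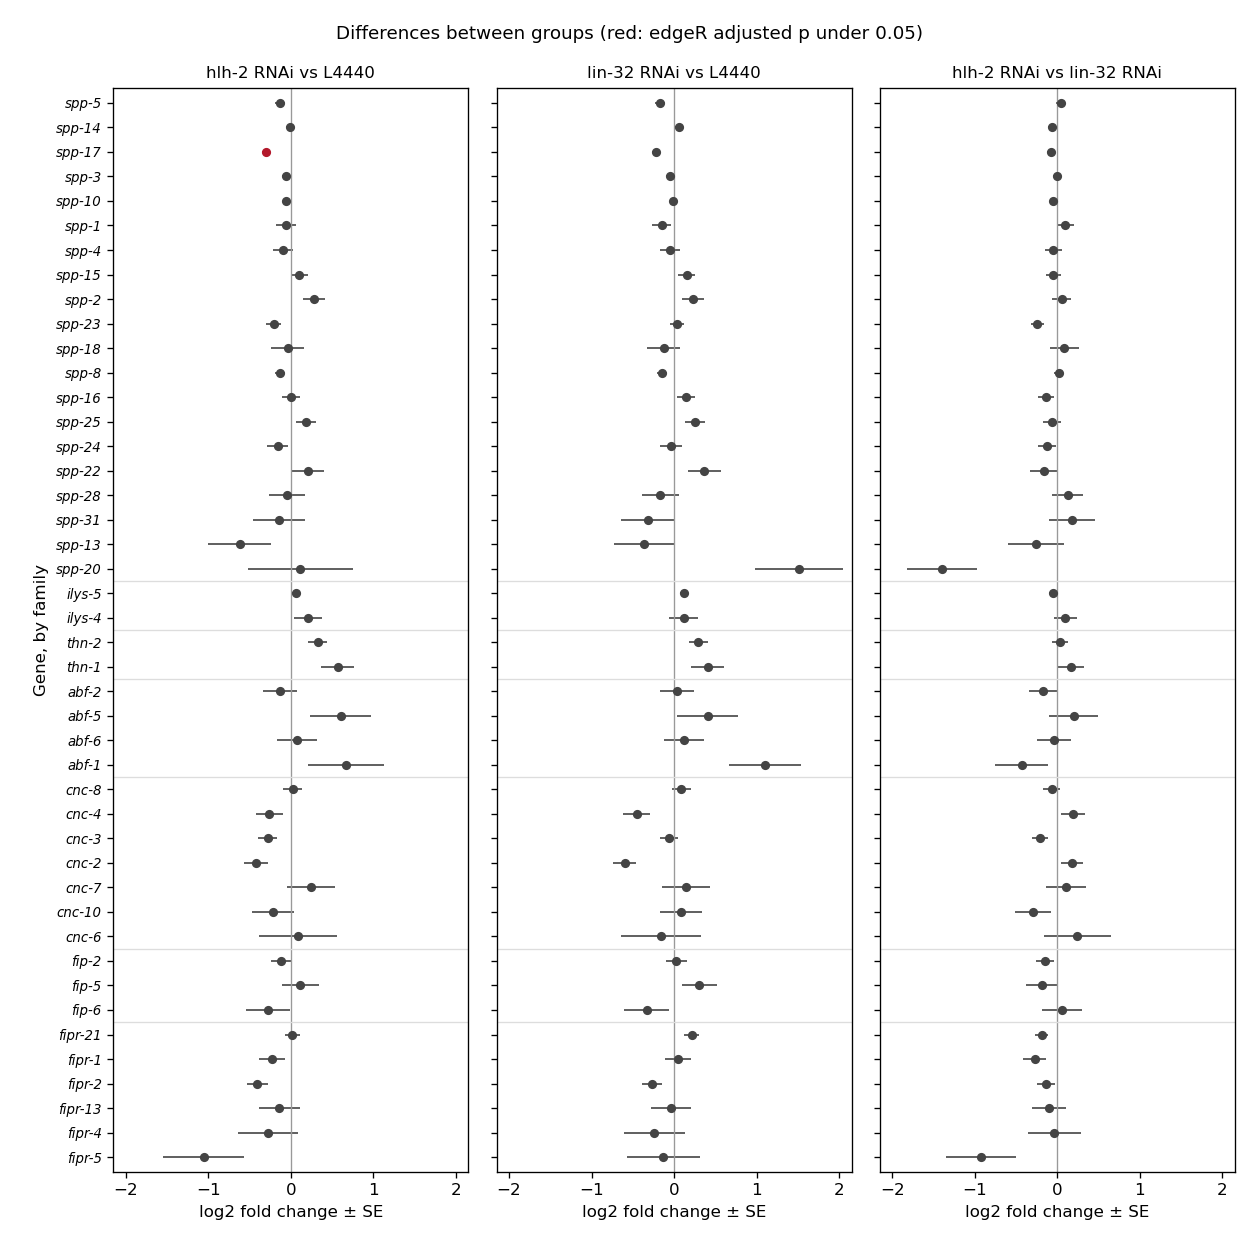
Log2 fold change with its SE (edgeR) of each of the 44 genes, by family, for hlh-2 RNAi against L4440, lin-32 RNAi against L4440 and hlh-2 RNAi against lin-32 RNAi. Only spp-17 for hlh-2 RNAi against L4440 has an adjusted p under 0.05 (red), and the widest bars belong to genes with few counts such as spp-20.

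Between the lin-32 RNAi-labelled libraries and L4440 no member passed the edgeR test, where 0.743% of all genes did (106 genes, with 0.21% of all genes higher and 0.533% lower). DESeq2 called 1 member, spp-17, and limma-voom called 0. By edgeR 10 members had an unadjusted p under 0.05, 5 higher and 5 lower, and the share of all genes was 12.6% (5.77% higher and 6.82% lower). Among the 5 higher, spp-20 and abf-1 met the count rule mainly through their lin-32 RNAi libraries. That count thus follows in part from how members were chosen. For spp-17 the mean was 192.3 ± 11.9 CPM in lin-32 RNAi (SD, n = 3) and 223.2 ± 4.22 CPM in L4440 (SD, n = 2), a log2 fold change (± SE) of -0.22 ± 0.048 at an edgeR adjusted p of 0.0619. Over 16 alternatives its value ran from -0.27 to -0.18 and its adjusted p from 4.97e-05 to 0.389, and 4 of them passed, among them DESeq2 (adjusted p = 0.00913), no low-count filter (edgeR adjusted p = 4.97e-05) and the fit without replicate 1 of lin-32 RNAi (edgeR adjusted p = 0.0159). For cnc-2 the log2 fold change was -0.60 ± 0.14 (SE, edgeR adjusted p = 0.0803).

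The remaining small p-value was that of spp-20, a scarce saposin-like gene (WBGene00005005, chromosome V, 6557615 to 6558203, minus strand, 508 exon bases). It had 10, 5 and 4 counts in the hlh-2 RNAi-labelled libraries, 16, 24 and 10 counts in the lin-32 RNAi-labelled ones, and 5 and 4 counts in L4440. These counts correspond to 0.330, 0.149 and 0.123 CPM, to 0.558, 0.678 and 0.332 CPM, and to 0.227 and 0.145 CPM in the same order. All lin-32 RNAi libraries were above all others, replicate 3 of lin-32 RNAi only just above replicate 1 of hlh-2 RNAi. The log2 fold change of lin-32 RNAi against L4440 was 1.52 ± 0.53 (SE, edgeR adjusted p = 0.260). The gene met the count rule through its lin-32 RNAi libraries and 1 hlh-2 RNAi library, so a difference of this direction follows in part from how members were chosen. The same holds for abf-1, with 11, 9 and 8 counts in hlh-2 RNAi, 12, 12 and 13 in lin-32 RNAi, and 4 and 5 in L4440.

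Of the 44 members, 23 lay above 0 and 21 below 0 between lin-32 RNAi and L4440, with a median log2 fold change of 0.03 beside 0.0015 over all tested genes. The libraries did not overlap for 15 members, 8 with lin-32 RNAi all higher and 7 with it all lower, beside 29.8% of all tested genes (14.4% all higher and 15.4% all lower). The 8 include spp-20 and abf-1, which met the count rule mainly through their lin-32 RNAi libraries. Of these, abf-1 also enters the abf median below. By family the median was -0.04 for spp, 0.12 for ilys, 0.35 for thn, 0.26 for abf, -0.07 for cnc, 0.03 for fip and -0.08 for fipr genes. This comparison and that of hlh-2 RNAi share the same 2 L4440 libraries, so values of a gene in both move together with those controls.

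Between the hlh-2 RNAi-labelled libraries and the lin-32 RNAi-labelled libraries no member passed the edgeR test, where 0.406% of all genes did (58 genes, with 0.294% higher and 0.112% lower), and DESeq2 and limma-voom also called 0 members. With the replicate number as a block the edgeR count over all genes was 132, again with 0 members. At an unadjusted p under 0.05 edgeR had 4 members, all lower in hlh-2 RNAi, and 7.97% of all genes were so called (4.31% higher and 3.66% lower). The smallest p of these 4 belonged to spp-20, at -1.40 ± 0.43 on the log2 scale (SE, edgeR adjusted p = 0.307). As it met the count rule mainly through its lin-32 RNAi libraries, its lower value in hlh-2 RNAi follows in part from that choice. Next came spp-23, a saposin-like gene beside spp-17 (WBGene00021335, chromosome I, 1018843 to 1019157, plus strand, 315 exon bases). It had 13.2, 12.22 and 11.89 CPM in the hlh-2 RNAi-labelled libraries, 15.45, 13.98 and 14.68 CPM in the lin-32 RNAi-labelled ones, and 15.24 and 13.58 CPM in L4440. The hlh-2 RNAi libraries were the 3 lowest of the 8, and those of lin-32 RNAi overlapped L4440. The log2 difference between hlh-2 RNAi and lin-32 RNAi was -0.24 ± 0.075 (SE, edgeR adjusted p = 0.321).

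The highest of the fipr genes, fipr-21, was the third (WBGene00009621, chromosome X, 10304529 to 10304867, plus strand, 339 exon bases). It had 8.974, 10.28 and 9.432 CPM in the hlh-2 RNAi-labelled libraries, 10.85, 11.53 and 10.39 CPM in the lin-32 RNAi-labelled ones, and 9.206 and 9.657 CPM in L4440. The lin-32 RNAi libraries were the 3 highest, and the other groups overlapped. Between hlh-2 RNAi and lin-32 RNAi the log2 difference was -0.19 ± 0.081 (SE, edgeR adjusted p = 0.578). For spp-17 this difference was -0.08 ± 0.043 (SE, edgeR adjusted p = 0.682), so its level was not shown to differ between the 2 kinds of RNAi. Libraries of the groups did not overlap for 5 members, all lower in hlh-2 RNAi, beside 13.7% of all tested genes (6.81% all higher and 6.87% all lower), and the median over the 44 was -0.05 beside -0.0015 over all tested genes. The 5 include spp-20, which met the count rule mainly through its lin-32 RNAi libraries.

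Several members varied with the replicate number of the RNAi libraries. The replicate numbers of the 6 RNAi libraries were tested as a term beside the group, a test chosen after the values were seen. By edgeR 7 of 44 members differed with the number, where 4.77% of 13848 tested genes did (660 genes). These were abf-5 (edgeR adjusted p = 0.000106), spp-18 (0.000195), spp-4 (0.000558), spp-2 (0.00185), spp-1 (0.00215), spp-15 (0.00738) and thn-2 (0.0141). With 1 library left out, the number of members was 6 (of 505 genes called in all) without replicate 1 of hlh-2 RNAi, 15 (of 1833) without replicate 2 and 10 (of 770) without replicate 3. It was 7 (of 602) without replicate 1 of lin-32 RNAi, 12 (of 1365) without replicate 2 and 8 (of 888) without replicate 3. DESeq2 called 232 genes with 4 members, 3 of them among the 7, and limma-voom called 599 genes with 8 members, among them all 7.

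Their patterns over the numbers were not alike. The saposin-like gene spp-18 had 26.2, 17.82 and 13.89 CPM in replicates 1, 2 and 3 of hlh-2 RNAi, 20.82, 17.74 and 15.9 CPM in those of lin-32 RNAi, and 19.46 and 20.08 CPM in L4440. Replicate 1 was the highest of each RNAi group, as it was for abf-5. The opposite held for spp-4, with 22.63, 26.49 and 29.31 CPM in hlh-2 RNAi, 22.84, 26.89 and 31.34 CPM in lin-32 RNAi, and 27.39 and 28.5 CPM in L4440. There replicate 1 was the lowest of each RNAi group, as it was for spp-1 at 34.87 CPM in hlh-2 RNAi and 35.61 CPM in lin-32 RNAi, and for thn-2. For spp-2 replicate 2 was the highest, at 27.24 CPM in hlh-2 RNAi and 27.12 CPM in lin-32 RNAi, and for spp-15 replicate 3 was the lowest, at 24.95 and 24.9 CPM in these groups. The labels do not say what a replicate number stands for, nor whether replicates were separate cultures, so p-values reflect only how far these libraries spread, which may be of technical origin. The coefficient of variation that edgeR fitted beyond counting error exceeded the median of all tested genes, 6.24%, in 33 of the 44 members. This median was not matched for level. Nearly all members under 5 CPM lay above it, while those of at least 5 CPM lay on both sides. The 6 members of at least 100 CPM all lay below it, from 3.185% (spp-10) to 5.163% (spp-5).

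**Figure D4:**
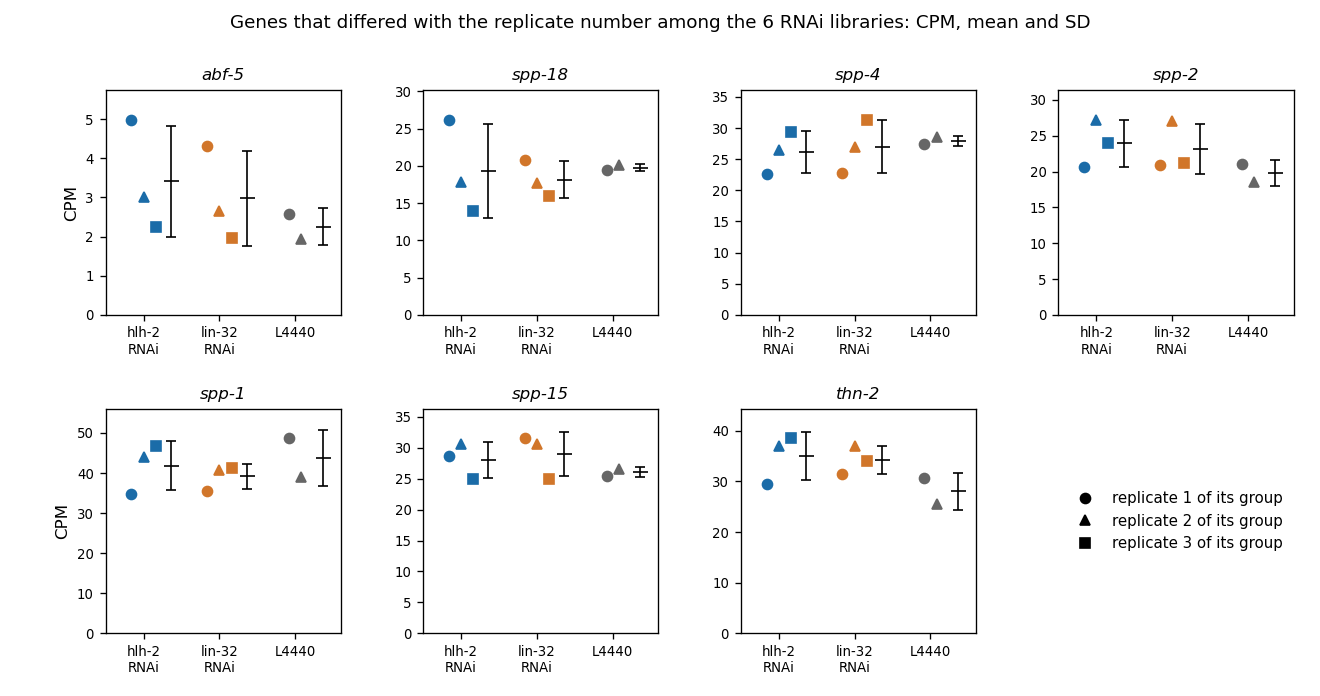
CPM (vertical axes from 0) of the 7 genes that differed with the replicate number, by group from left to right hlh-2 RNAi, lin-32 RNAi and L4440, with the marker shape giving the replicate and black bars the mean with SD (n = 3, 3 and 2). In both RNAi groups replicate 1 is highest for abf-5 and spp-18 and lowest for spp-4, spp-1 and thn-2.

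Many of these genes lie side by side in the genome. With neighbours defined as family genes at most 10 kb apart, 59 of the 94 symbols fell into 21 clusters, which hold 26 of the 44 members, and 10 clusters hold at least 2 members. Levels within a cluster could differ widely. On chromosome X (7314969 to 7320354) the cluster of spp-3, spp-2, spp-6, spp-4 and spp-5 has 4 members whose levels per kb spanned 31.4-fold, with spp-5 highest and spp-2 lowest. The pair spp-17 and spp-23 (chromosome I, 1016405 to 1019157) spanned 12.3-fold, and the pair thn-1 and thn-2 (chromosome IV, 12380084 to 12383974) spanned 8.68-fold. The caenacin cluster on chromosome V (1442342 to 1450183) holds cnc-11, cnc-1, cnc-5, cnc-4, cnc-3 and cnc-2, of which the last 3 are members and spanned 2.41-fold. Those 3 had log2 fold changes below 0 against L4440 for hlh-2 RNAi (-0.26 for cnc-4, -0.28 for cnc-3 and -0.42 for cnc-2) and for lin-32 RNAi (-0.45, -0.07 and -0.60 in this order), none past the edgeR test. In the spp-17 and spp-23 pair both values lay below 0 for hlh-2 RNAi (-0.30 for spp-17 and -0.21 for spp-23), while for lin-32 RNAi spp-17 stood at -0.22 and spp-23 at 0.03.

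The other 50 family symbols did not meet the count rule, and each had fewer than 100 counts over the 8 libraries. Of these, 6 had no counts at all (fipr-12, fipr-14, fipr-15, fipr-25, cnc-9 and spp-29), and a count of 0 over the 8 libraries allows up to 0.0125 CPM (3 counts, counting error only). The genes just outside the rule were still tested, namely fipr-29, spp-7, fipr-3 and fipr-9. As examples, fipr-29 had 6, 9 and 9 counts in hlh-2 RNAi, 8, 14 and 18 in lin-32 RNAi, and 2 and 7 in L4440, and spp-7 had 1, 4 and 4 counts in hlh-2 RNAi, 4, 12 and 1 in lin-32 RNAi, and 12 and 3 in L4440. The fipr-3 gene had 5, 9 and 4 counts in hlh-2 RNAi, 4, 11 and 8 in lin-32 RNAi, and 9 and 15 in L4440. In CPM its L4440 libraries, at 0.408 and 0.545, lay above all RNAi libraries. As L4440 has only 2 libraries, a gene with 10 counts in these alone cannot meet the rule. The counts of members higher and lower than L4440 carry this limit. Just inside were abf-1 and spp-20, whose counts are given above. The library kit does not mark strand, so reads of 4 members cannot be told apart from those of an exon on the other strand: spp-15 with C48E7.6 (243 shared bases), spp-16 with F32D8.7 (170 bases), fip-2 with T27E4.5 (23 bases) and spp-1 with T07C4.3 (19 bases). Neighbouring family genes can be near-identical copies, and the sources used here do not say how reads matching several genes were counted, so levels of such copies are uncertain.

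The pathways known to act on these families were read from the same fit. The p38 MAP kinase list (7 tested genes), the epidermal antimicrobial signalling list (11), the DBL-1 list (7), the insulin list (8), the list of immune and intestinal transcription factors (12) and the neuropeptide-like antimicrobial peptides (8 of 10 tested) had no gene past the test in any of the 3 comparisons, by edgeR, DESeq2 or limma-voom. By edgeR 0.203% of all genes passed for hlh-2 RNAi against L4440, 0.743% for lin-32 RNAi against L4440 and 0.406% between the RNAi groups, so few or no calls are the background for lists of this size. At an unadjusted p under 0.05 by edgeR, these 6 lists had at most 2 genes each in any comparison, where the shares over all genes were 6.78%, 12.6% and 7.97% in the same order. Median log2 fold changes for hlh-2 RNAi against L4440 were 0.02 (p38), 0.03 (epidermal), 0.06 (DBL-1), 0.04 (insulin), 0.02 (transcription factors) and -0.14 (neuropeptide-like), beside -0.0007 over all tested genes. For lin-32 RNAi against L4440 they were 0.05, 0.07, 0.12, 0.01, 0.04 and -0.08 in the same order, beside 0.0015 over all tested genes. By the smallest p in each list, sek-1, the MAP kinase kinase of the p38 pathway, stood at 0.17 ± 0.065 for lin-32 RNAi (log2, SE, edgeR adjusted p = 0.301). The bZIP gene cebp-1 stood at 0.34 ± 0.14, the Smad gene sma-2 at 0.27 ± 0.14 and the kinase gene sgk-1 at 0.20 ± 0.076 in that comparison (log2, SE, edgeR adjusted p = 0.320, 0.481 and 0.307). The bZIP gene zip-2 stood at -0.17 ± 0.042 between hlh-2 RNAi and lin-32 RNAi (log2, SE, edgeR adjusted p = 0.134), and nlp-31 at -0.34 ± 0.13 between hlh-2 RNAi and L4440 (log2, SE, edgeR adjusted p = 0.651).

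The list of 12 infection response genes, many of which are known to rise on bacterial infection, held 1 gene that passed. The gene irg-6 averaged 0.973 ± 0.195 CPM in the hlh-2 RNAi-labelled libraries (SD, n = 3), 1.08 ± 0.151 CPM in the lin-32 RNAi-labelled ones (SD, n = 3) and 2.39 ± 0.624 CPM in L4440 (SD, n = 2). It fell in lin-32 RNAi, with a log2 fold change (± SE) of -1.16 ± 0.23 at an edgeR adjusted p of 0.0446, and stood just outside the threshold in hlh-2 RNAi, at -1.31 ± 0.24 (SE, edgeR adjusted p = 0.0501). The lin-32 RNAi call was lost with DESeq2 (adjusted p = 0.0577), limma-voom (adjusted p = 0.0537) and a filter of 1 CPM (edgeR adjusted p = 0.0535). It was also lost without replicate 2 of hlh-2 RNAi, any replicate of lin-32 RNAi, or either L4440 library (edgeR adjusted p from 0.0675 to 0.441). DESeq2 called irg-6 and mul-1 lower in hlh-2 RNAi. At an unadjusted p under 0.05, 7 of the 12 genes were lower in hlh-2 RNAi, and 5 were lower and 1 higher in lin-32 RNAi. Over all tested genes 3.64% were lower in hlh-2 RNAi, and 6.82% were lower and 5.77% higher in lin-32 RNAi. The list was chosen with earlier results of these data known, and both comparisons share the 2 L4440 libraries. These counts are therefore no test of the list. The list's median was -0.37 for hlh-2 RNAi and -0.19 for lin-32 RNAi against L4440, beside -0.0007 and 0.0015 over all tested genes. The intestinal gene dod-24, for example, stood at -0.62 ± 0.15 and -0.67 ± 0.15 in these comparisons (log2, SE, edgeR adjusted p = 0.232 and 0.0605).

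Markers of the tissues that make these peptides were set beside these values. The summed level of 7 intestine markers ran from 802 to 900 CPM in hlh-2 RNAi, from 800 to 933 CPM in lin-32 RNAi and from 804 to 830 CPM in L4440, and none passed the edgeR test in any comparison (unadjusted p under 0.05 in 1, for lin-32 RNAi against L4440). For 8 epidermis markers the sums were 175 to 182, 172 to 184 and 179 to 188 CPM in these groups. Among them the collagen gene rol-6, at under 1 CPM in every group mean, fell in lin-32 RNAi against L4440 (log2 -3.75 ± 0.59, SE, edgeR adjusted p = 0.0122), a call lost without replicate 2 of lin-32 RNAi or either L4440 library (edgeR adjusted p from 0.0582 to 0.107). It was higher in hlh-2 RNAi than in lin-32 RNAi (log2 3.10 ± 0.58, SE, edgeR adjusted p = 0.0403), and that call held with replicate 1 of lin-32 RNAi left out but with no other single library left out. For 8 pharynx markers the sums were 60.2 to 61.9, 59.2 to 61.0 and 62.3 to 64.5 CPM, so all 6 RNAi libraries lay below both L4440 libraries. The sum follows its highest genes, and the markers did not all move alike. Against L4440, 3 lay above 0 and 5 below 0 on the log2 scale for hlh-2 RNAi, with 1 all lower. For lin-32 RNAi 2 lay above 0 and 6 below 0, with 3 all lower. The highest marker, myo-2, stood at -0.15 in both comparisons, while pha-4 stood at 0.14 for hlh-2 RNAi and 0.07 for lin-32 RNAi (log2). For 6 body wall muscle markers the sums were 819.8 to 886.1, 846.9 to 893.8 and 851.5 to 878.1 CPM, for 7 neuron markers 226.9 to 234.0, 226.8 to 235.3 and 221.9 to 228.1 CPM, and for the germline markers (6 of 7 tested) 6357 to 6408, 6026 to 6481 and 6428 to 6485 CPM. The muscle myosin gene myo-3 was higher in hlh-2 RNAi than in lin-32 RNAi (log2 0.24 ± 0.043, SE, edgeR adjusted p = 0.0309), a call lost with any 1 library left out (edgeR adjusted p from 0.0504 to 0.163). The part of these markers in the values of the members was not tested. No matched marker of these lists was at 0 in all libraries, and the planned intestine marker opt-2 matched no symbol.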

How the data were processed

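RNA of whole nematodes was measured by RNA-seq in 8 libraries. The RNA was extracted with QIAzol and made into libraries with the unstranded TruSeq RNA v2 kit, per the labels' protocols. The submitters' processing notes name featureCounts 1.4.6-p4, TopHat2 2.1.0 and bcl2fastq 1.8.4, and the build WBcel235. Neither the annotation release nor how strand, overlaps and multi-mapping reads were handled is stated in the sources used here. The authors deposited raw read counts per gene.

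WormBase symbols were matched for 43693 of 46748 IDs, and the WBcel235 annotation gave coordinates and exon lengths for 46449. Tests used edgeR 4.0.16 (R 4.3.3): genes were filtered by filterByExpr, scaled by TMM and fitted by quasi-likelihood with the group as the only term over all 8 libraries. The p-values were adjusted over all 14272 tested genes (Benjamini-Hochberg), and the threshold was 0.05. DESeq2 1.42.0 and limma-voom (limma 3.58.1), library size or DESeq2 size factors for scaling, no filter or a filter of 1 CPM in 2 libraries, the replicate block, only the 2 groups compared, and leaving out each library were the alternatives. Replicates of a group differed beyond counting noise, with a chi-square per degree of freedom of 5.58 to 16.0.

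The members, gene lists and tests were chosen with earlier results of these data known. Values in every library are given for members past the threshold, the 3 with the smallest p in each comparison and the highest member of each family by CPM. Of each pathway list, the genes past the threshold or the gene with the smallest p are named with group means or log2 fold changes only. Others named with values, such as the genes that differed with the replicate number, dod-24 and abf-1, were chosen after their values were seen. Across the RNAi groups, deviations from the group means correlated across genes at 0.265, 0.194 and 0.191 for equal replicate numbers. The numbers were therefore taken to pair these 6 libraries, although no label names a shared day or batch. With L4440, whose 2 libraries gave -0.165 to -0.0368, the numbers were not taken to pair. The replicate block nevertheless used the numbers of all libraries, so its results against L4440 carry this limit.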

Additional observations from a re-analysis of the deposited data

How the results depend on the processing

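With 2 or 3 libraries per group and changes as small as those of these genes, the calls rest on few libraries. For hlh-2 RNAi against L4440, the 29 genes called became 49 with DESeq2, 223 without a low-count filter and 72 with the replicate block, and 3 to 31 with 1 library left out. The members called (spp-17 alone) became 3 without a filter, namely spp-2, spp-17 and thn-2, and 0 to 1 with 1 library left out. For lin-32 RNAi against L4440, the 106 genes became 177 with DESeq2, 610 without a filter and 350 with the replicate block, and 17 to 157 with 1 library left out. Its 0 members became 1 with DESeq2 and 1 with the replicate block (spp-17 in both, edgeR adjusted p = 0.0480 with the block), 5 without a filter (cnc-2, cnc-4, spp-5, spp-17 and thn-2), and 0 to 1 with 1 library left out. For hlh-2 RNAi against lin-32 RNAi, the 58 genes became 91 with DESeq2, 342 without a filter and 132 with the replicate block, and 25 to 93 with 1 library left out, while 0 members passed in all of these. For the replicate number in the 6 RNAi libraries, where 660 genes and 7 members passed, DESeq2 called 232 genes and 4 members, and with 1 library left out 505 to 1833 genes and 6 to 15 members passed. The causes were not tested.

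The pairing by replicate number was taken to hold for the 6 RNAi libraries only, and the block changed no call of a member between them. The block as fitted used the numbers of all 8 libraries, L4440 included. Its results against L4440, given above and below, therefore rest on a matching that the correlations did not bear out. For spp-17 in hlh-2 RNAi against L4440 the log2 fold change ran from -0.32 to -0.27 and the adjusted p from 1.14e-09 to 0.372. The infection response gene irg-6 in hlh-2 RNAi against L4440 passed with the replicate block (log2 -1.43, edgeR adjusted p = 0.0124), without a filter (edgeR adjusted p = 7.84e-06) and with DESeq2 (adjusted p = 0.0385). No called value of a named gene changed sign. At 22.05 to 35.4 counts per CPM, the 9 members under 1 CPM carry wide counting error, so differences in them were not detectable unless large.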
